A study of Homo sapiens with 8 samples.

Results

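The 34 genes described here act at the G1/S transition and in DNA replication, and they come from the 34415 gene symbols counted in HaCaT cells that had received small interfering RNA (siRNA) against ETV4. The rule takes them by symbol for their function and uses no measured value, though the list was chosen with earlier results of these data known. By role, 8 serve helicase loading (MCM2 to MCM7, CDC6 and CDT1), 6 helicase activation (MCM10, CDC45 and GINS1 to GINS4) and 8 the polymerases and the fork (PCNA, POLA1, POLE2, RFC4, FEN1, LIG1, EXO1 and CLSPN). A further 3 serve chromatin assembly and maintenance (CHAF1A, CHAF1B and UHRF1), 4 nucleotide supply (RRM1, RRM2, TYMS and TK1) and 5 belong to the E2F and cyclin E group (E2F1, E2F2, CCNE1, CCNE2 and CDC25A). All 34 were counted well enough to be tested.

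HaCaT is a human epidermal keratinocyte line that immortalized spontaneously in culture, and every library came from it, so the values describe 1 line. The siETV4 group held 4 cultures transfected for 48 h with siRNA directed at ETV4, and the siNC group held 4 cultures transfected for the same time with a negative-control siRNA. Cultures of both groups spent 96 h in 35 mM glucose, after maintenance in RPMI-1640 with 5.5 mM glucose and fetal bovine serum, and were at passages 21 to 33. The submitters describe the cultures of a group as independent biological replicates. The sources used here do not give the siRNA sequences, and cultures in 5.5 mM glucose were not analysed here.

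ETV4 belongs to the PEA3 subfamily of ETS transcription factors, which bind DNA around a GGAA core. Before S phase, CDC6 and CDT1 help to load the ring of MCM2 to MCM7 onto origins, and MCM10, CDC45 and the GINS complex turn the loaded ring into an active helicase. Cyclin E with its kinase, and E2F factors freed from RB, drive entry into S phase, and many replication genes are known E2F targets. Basal keratinocytes divide to renew the epidermis, and these genes are shut down as the cells differentiate.

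The promoters of the 34 genes were searched for E2F and ETS words, since the list is a textbook set of E2F targets and ETV4 is an ETS factor. RefSeq promoters (GRCh38.p14, 250 bases before to 50 bases after the start, 300 bases) were matched for 30 of the 34 genes. The E2F words were TTTCCCGC, TTTCGCGC, TTTGCCGC and TTTGGCGC, the ETS words were CCGGAAA and CCGGAAG, and the third motif was CCAAT, each on both strands. The 4 promoters below, shown up to 260 bases, were chosen by results given further on. E2F2, GINS3 and LIG1 passed the threshold once GC content trends were removed and a control library unlike the other controls was left out. POLA1 had the highest fold change without that library. Capitals mark the E2F and ETS words, each sequence runs 5′ to 3′ along the gene, and its last 10 bases begin at the start site.
E2F2, chr1:23531224-23531483, minus strand: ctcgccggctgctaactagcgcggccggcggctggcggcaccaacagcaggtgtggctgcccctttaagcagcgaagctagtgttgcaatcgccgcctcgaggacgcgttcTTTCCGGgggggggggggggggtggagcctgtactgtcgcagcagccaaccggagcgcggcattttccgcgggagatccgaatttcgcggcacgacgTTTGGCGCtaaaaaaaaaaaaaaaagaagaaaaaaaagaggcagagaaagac
GINS3, chr16:58392221-58392480, plus strand: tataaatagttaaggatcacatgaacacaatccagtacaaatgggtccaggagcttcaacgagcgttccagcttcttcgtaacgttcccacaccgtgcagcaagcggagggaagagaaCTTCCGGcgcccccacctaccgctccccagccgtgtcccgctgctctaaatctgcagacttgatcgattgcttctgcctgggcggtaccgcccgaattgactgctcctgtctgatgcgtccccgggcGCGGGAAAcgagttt
LIG1, chr19:48170335-48170594, minus strand: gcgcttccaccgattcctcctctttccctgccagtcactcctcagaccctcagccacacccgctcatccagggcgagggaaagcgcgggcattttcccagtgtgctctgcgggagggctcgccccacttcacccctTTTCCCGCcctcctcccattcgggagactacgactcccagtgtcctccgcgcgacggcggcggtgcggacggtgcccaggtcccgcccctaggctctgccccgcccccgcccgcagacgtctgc
POLA1, chrX:24693668-24693927, plus strand: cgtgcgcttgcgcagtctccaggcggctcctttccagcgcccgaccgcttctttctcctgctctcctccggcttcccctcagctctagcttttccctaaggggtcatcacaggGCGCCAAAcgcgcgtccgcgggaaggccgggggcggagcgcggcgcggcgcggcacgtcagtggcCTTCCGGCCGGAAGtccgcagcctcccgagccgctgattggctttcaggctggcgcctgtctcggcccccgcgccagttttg

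E2F words were common in these promoters, and ETS words were less so. An E2F word stood in a promoter of 20 of the 30 genes (66.7%), against 3.99% of all 27305 genes with promoters of this length. Some genes have more than 1 promoter. Since the list is a textbook set of E2F targets, a high share follows from how it was chosen. The genes compared were neither limited to expressed genes nor matched for promoter GC content. All 6 matched helicase loading genes held such a word, as did 6 of 8 genes of the polymerases and fork, 3 of 5 of helicase activation, 3 of 4 of E2F and cyclin E, 1 of 3 of chromatin and 1 of 4 of nucleotide supply. Of the 28 E2F words found, 16 lay within the 100 bases before the start and 5 after it. An ETS word stood in a promoter of 6 of the 30 (20.0%), against 15.8% of all genes: GINS2, GINS3, POLA1, RFC4, RRM2 and E2F2. CCAAT stood in a promoter of 18 of the 30 (60.0%), against 39.7% of all genes. In the printed promoters the E2F word began 42 bases before the start in E2F2, 5 bases before it in GINS3, 114 in LIG1 and 137 in POLA1. The ETS word began 139 bases before the start in E2F2 and 132 in GINS3, and in POLA1 an adjoining pair began 72 and 65 bases before it. No E2F word overlapped an ETS word there. These are matches of letters, and binding was not measured.

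Library totals lay between 35057643 and 41657753 counts, so that 1 CPM (count per 1e+06 counts of the library) corresponds to 40.1 counts at the mean depth. The 9 keratinocyte markers summed to 4111 to 4647 CPM in siETV4 and 4116 to 4783 CPM in siNC, and all 9 averaged at least 1 CPM. Of the markers of other cell types, the 6 of fibroblasts summed to 4.16 to 5.34 CPM in siETV4 and 3.42 to 6.44 CPM in siNC, with COL1A2 and LUM at 0 in every library and COL1A1 highest. The 5 of melanocytes summed to 5.71 to 8.95 CPM in siETV4 and 4.25 to 8.21 CPM in siNC, mostly MITF, with MLANA and TYR at 0. The 4 of endothelium summed to 15.2 to 21.9 CPM in siETV4 and 13.9 to 18.4 CPM in siNC, mostly CDH5, with KDR at 0. The 5 of leukocytes stayed below 1 CPM in sum, with PTPRC at 0. Mitochondrially encoded genes took 3.38 to 4.50% of counts in siETV4 and 3.98 to 5.04% in siNC. ETV4 itself stood at 3.10, 2.71, 1.83 and 2.80 CPM in siETV4 replicates 1 to 4 and at 32.0, 29.7, 31.1 and 19.8 CPM in siNC replicates 1 to 4. The target was thus low in every siETV4 library, with a log2 fold change of -3.43 (SE 0.21). Its adjusted p was 4.64e-05 in edgeR's quasi-likelihood test, adjusted by the Benjamini-Hochberg method over 13572 genes.

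1 control library stood apart from the other controls. In siNC replicate 4 the departure of genes from their mean over all libraries followed the GC content of transcripts with a Spearman's rho of -0.59 across genes, against 0.55, 0.52 and 0.62 in siNC replicates 1 to 3 and -0.63, 0.20, -0.57 and 0.02 in siETV4 replicates 1 to 4. Genes of 1 library are not independent, so these are descriptions. The value of siNC replicate 4 lay within the siETV4 range, near siETV4 replicates 1 and 3, which were kept. Without it, siNC lay at 0.52 to 0.62 and siETV4 at -0.63 to 0.20. Group and GC content trend thus lined up more closely in that fit, and their parts cannot be told apart there. Of the 34 genes, siNC replicate 4 was the lowest of the siNC libraries for 19 and the highest for 10. The same shares over all tested genes were not counted, so this is no trait of the replication genes. The results below are therefore given for all 8 libraries, without siNC replicate 4, and with the trend of each library on GC content and transcript length removed.

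The replication genes were expressed at very different levels. On the deposited FPKM scale, which divides fragments by gene length and library total, PCNA, the sliding clamp of the polymerases, had the highest mean, 282 ± 8.84 FPKM in siETV4 and 286 ± 20.9 FPKM in siNC (SD, n = 4 each). TK1, the cytosolic thymidine kinase, followed with 231 ± 28.6 FPKM in siETV4 and 261 ± 33.7 FPKM in siNC. At the low end, POLA1, the catalytic subunit of the priming polymerase, stood at 2.17 ± 0.467 FPKM in siETV4 and 1.84 ± 0.903 FPKM in siNC, and CLSPN, CCNE1 and CCNE2 lay below 5 FPKM in both group means. Together the 34 genes took 0.521 to 0.537% of all counts in siETV4 and 0.528 to 0.572% in siNC, so the ranges overlapped. The lowest count of any of them in a library was 188 (CCNE1) and the highest 27712 (MCM7).

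**Figure D1:**
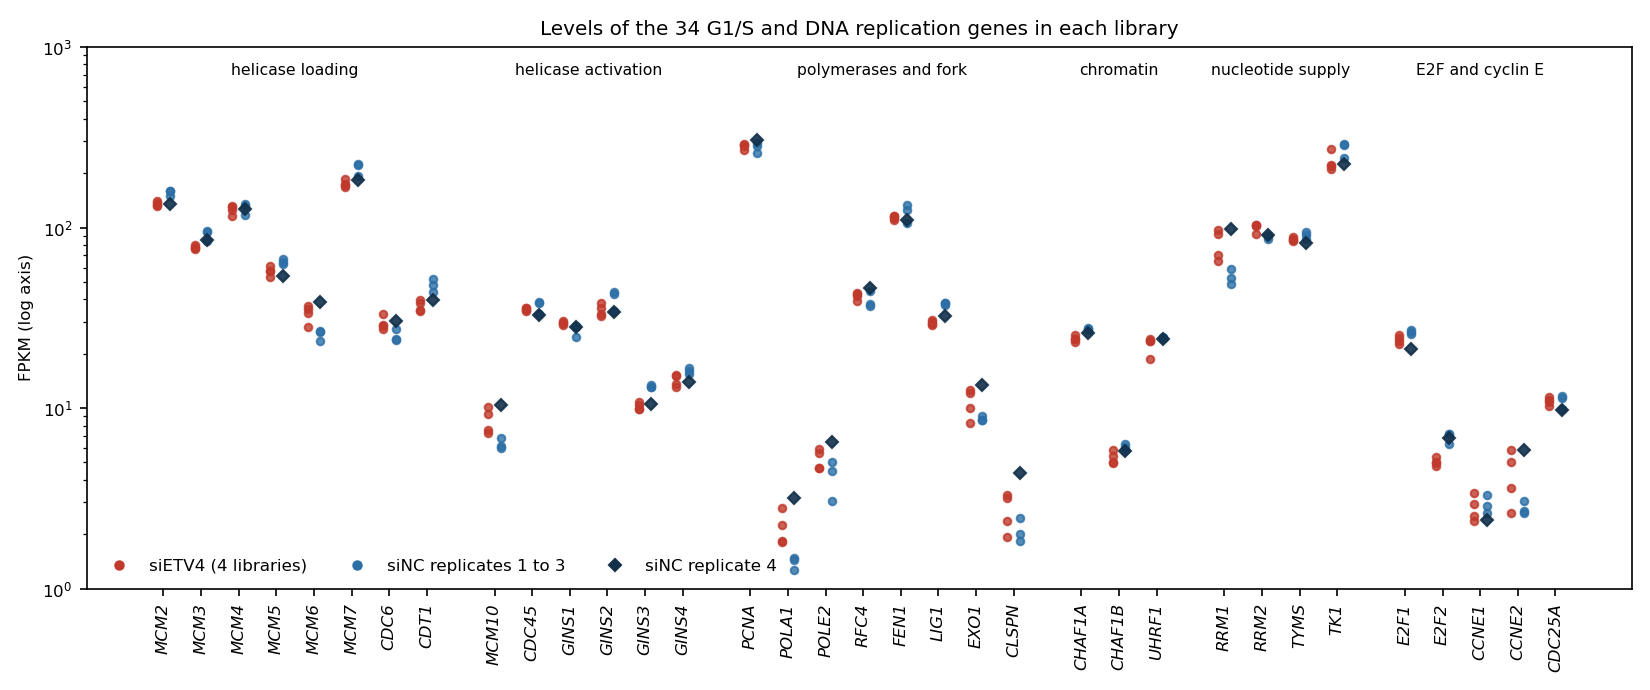
FPKM of each of the 34 genes in each library on a log axis, by role, with siETV4 in red left of siNC in blue and siNC replicate 4 as a dark diamond. PCNA and TK1 are the highest genes, with group means of 231 to 286 FPKM, and POLA1 the lowest at about 2 FPKM, and for most genes the groups lie close together, with siNC replicate 4 often at an edge of its group.

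With all 8 libraries no gene of the list passed an adjusted p of 0.05. The count was 0 of 34, where 0.236% of all 13572 tested genes passed. Most members leaned lower: the log2 fold change was negative for 24 and positive for 10. The median was -0.08 over the members and -0.01 over all genes, of which 51.6% were negative. At an unadjusted p under 0.05 edgeR gave 8 members, all with negative values (MCM2, MCM3, MCM7, CDT1, GINS3, LIG1, CHAF1A and E2F2), where 12.6% of all genes reached it. DESeq2 called 1 member, E2F2, lower (DESeq2 adjusted p 9.32e-04, 1.64% of all genes called), and limma-voom called 0.

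The CPM ranges of the groups were apart for 6 members. MCM3, CDT1, LIG1, CHAF1A and E2F2 were lower in every siETV4 library than in any siNC library, where this held for 3.93% of all genes tested. RRM2 was the single member higher in every siETV4 library, a pattern of 2.62% of all genes, and the other 28 overlapped. The standard error of the log2 fold change had a median of 0.10, with a range of 0.073 for RRM2 to 0.29 for CCNE2. For 28 members the 95% interval lay within a 1.5-fold change in either direction, and for CDT1, GINS3, POLA1, RRM1, E2F2 and CCNE2 it reached past that. In bulk RNA, fewer cells in a phase of the cycle and less RNA per cell cannot be told apart.

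When siNC replicate 4 was left out, 10 of the 34 passed, 7 lower (LIG1, E2F2, CDT1, GINS3, MCM7, MCM3 and MCM2) and 3 higher (RRM1, POLA1 and MCM6), and the median was -0.13. Over all genes 16.9% passed without that library, 12.0% higher and 4.88% lower. After GC content and length trends had been removed in all 8 libraries, 1 member passed, E2F2, lower, and the median was -0.07. There 1.73% of all genes passed, 0.871% higher and 0.863% lower. Under both steps together GINS3, E2F2 and LIG1 were lower past the threshold and 0 members higher, where 6.42% of all genes passed, 2.93% higher and 3.49% lower. E2F2 was the only member called in all 3 of these alternatives, with LIG1 and GINS3 in both that left the library out.

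**Figure D2:**
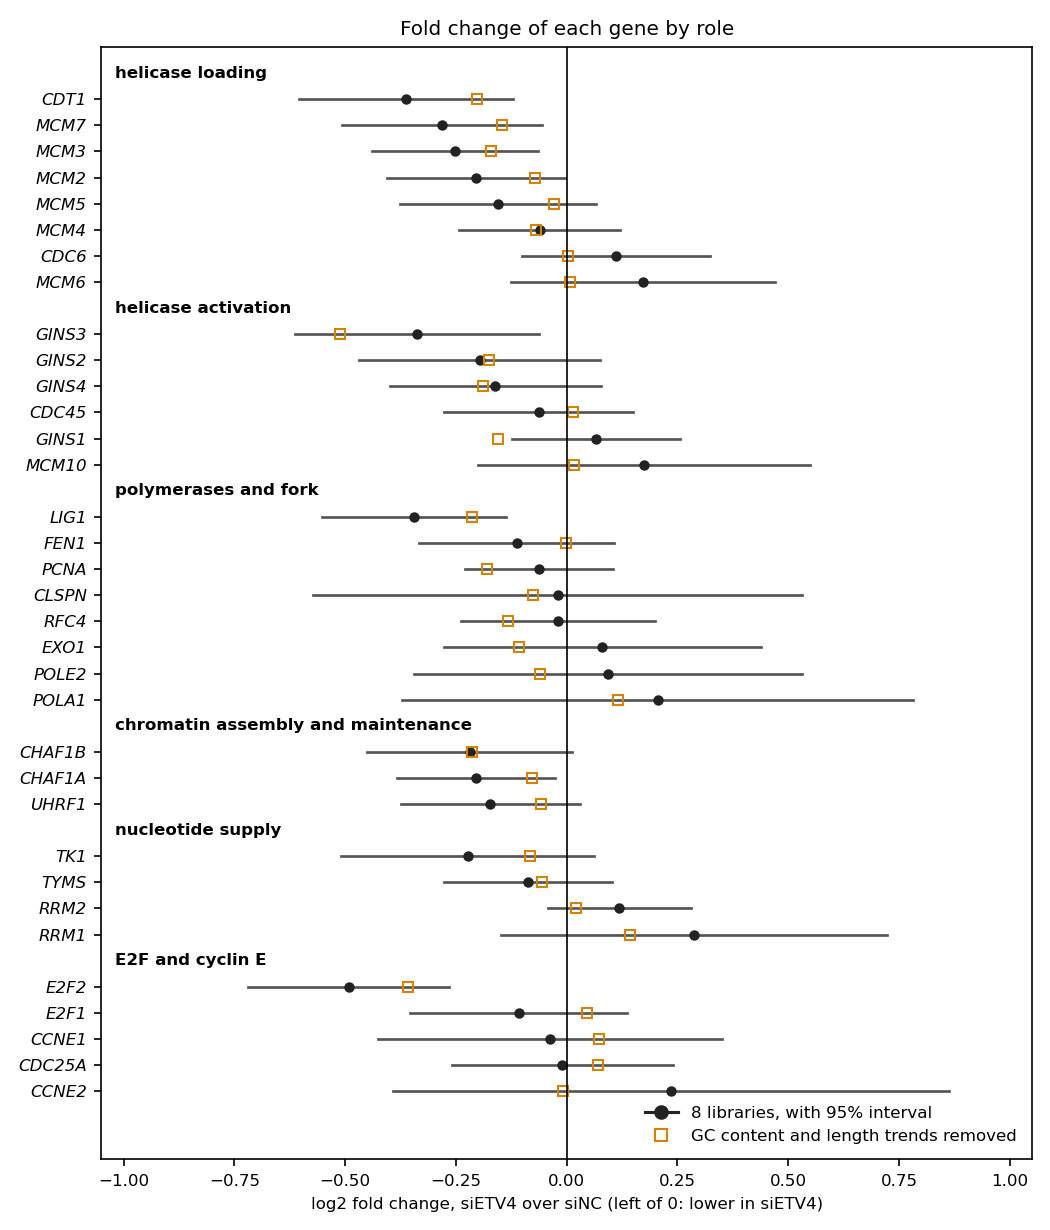
Log2 fold change (siETV4 over siNC) of each gene by role, as a black point with its 95% interval for all 8 libraries and as an open square with GC content and length trends removed. E2F2 lies farthest left with all libraries at -0.49, and the squares lie nearer to 0 for most genes of helicase loading, whereas GINS3 moves to -0.51.

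Among the genes of helicase loading, MCM2 to MCM7 did not all have the same sign, and none passed with all 8 libraries. MCM2, MCM3 and MCM7, subunits of the hexameric helicase, had negative values with all 8 libraries, and MCM6, another subunit, a positive one. Of the 8 genes 6 were negative. Their median was -0.18, and -0.07 once GC content and length trends had been removed. MCM7 stood at 496, 569, 503 and 512 CPM in siETV4 replicates 1 to 4, against 589, 701, 698 and 540.1 CPM in siNC replicates 1 to 4. Replicates 1 to 3 of siNC lay above every siETV4 library, and siNC replicate 4 lay within the siETV4 range. Its log2 fold change was -0.28 (SE 0.10, edgeR adjusted p 0.335). Without siNC replicate 4 MCM7 fell by 0.35 on the log2 scale (edgeR adjusted p 0.0234), and with the trends removed its value was -0.15 (edgeR adjusted p 0.241).

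MCM3 had 259, 263, 256 and 269 CPM in siETV4, against 293, 339.8, 331 and 283 CPM in siNC. The groups did not overlap, and siNC replicate 4 lay nearest to siETV4. The log2 fold change was -0.25 (SE 0.09, edgeR adjusted p 0.301), -0.30 without siNC replicate 4 (edgeR adjusted p 0.0290) and -0.17 after trend removal (edgeR adjusted p 0.122). MCM2 had 454, 498, 449 and 476 CPM in siETV4, against 537, 585, 575 and 465 CPM in siNC. Here siNC replicate 4 fell within the siETV4 range and the other siNC libraries above it. Its value was -0.20 (SE 0.09, edgeR adjusted p 0.393) with all libraries, -0.27 without siNC replicate 4 (edgeR adjusted p 0.0364) and -0.07 with the trends removed (edgeR adjusted p 0.520). MCM5, a further subunit, had a value of -0.16 (SE 0.10) and MCM4 of -0.06 (SE 0.08), and neither passed in any alternative.

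MCM6 went the other way. It had 131, 107, 133 and 124 CPM in siETV4, against 101, 105, 91.0 and 142 CPM in siNC, so siNC replicate 4 was the highest of all libraries while the other siNC libraries lay below every siETV4 library. Its value was 0.17 (SE 0.14, edgeR adjusted p 0.601). It reached 0.32 without siNC replicate 4 (edgeR adjusted p 0.0407) and 0.01 with the trends removed (edgeR adjusted p 0.971). Of the summed FPKM of MCM2 to MCM7, MCM7 took 28.9 ± 1.15% in siETV4 and 30.9 ± 1.25% in siNC and MCM6 5.54 ± 0.648% in siETV4 and 4.39 ± 1.26% in siNC (SD, n = 4 each). MCM7 shares part of its span (chr7:100092728-100101397, GRCh38) with AP4M1, which averaged 645 counts a library, and the sources used here do not say whether reads were counted by strand.

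CDT1, which brings the MCM ring to origins and is destroyed once S phase begins, had 90.7, 103, 89.5 and 103.5 CPM in siETV4, against 141, 133, 120.4 and 103.6 CPM in siNC. The groups met at their edges, where siNC replicate 4 was within 1 CPM of the highest siETV4 library. The log2 fold change was -0.36 (SE 0.11, edgeR adjusted p 0.262), -0.44 without siNC replicate 4 (edgeR adjusted p 0.0131) and -0.20 with the trends removed (edgeR adjusted p 0.128). CDC6, an ATPase that works with CDT1, had a value of 0.11 (SE 0.10), and the groups overlapped at 131 to 151 CPM in siETV4 and 115 to 141 CPM in siNC.

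In helicase activation, GINS3 was the gene with the lowest values. It encodes a subunit of the 4-part GINS complex, which holds CDC45 to the MCM ring. GINS3 stood at 22.5, 24.4, 22.0 and 24.6 CPM in siETV4, against 31.5, 31.5, 31.3 and 23.8 CPM in siNC. Replicates 1 to 3 of siNC lay close together above every siETV4 library, and siNC replicate 4 lay within the siETV4 range. The log2 fold change was -0.34 (SE 0.13, edgeR adjusted p 0.341) with all libraries and -0.43 without siNC replicate 4 (edgeR adjusted p 0.0209). Trend removal gave -0.51 (SE 0.14, edgeR adjusted p 0.0991), and with siNC replicate 4 also left out GINS3 fell by 0.65 on the log2 scale (edgeR adjusted p 0.0021). With the trends removed, its departures from its mean over all libraries (log2 CPM) were, in replicate order, -0.36, -0.13, -0.41 and -0.08 in siETV4. In siNC they were 0.45, 0.355, 0.42 and -0.23, so siNC replicate 4 still lay within the siETV4 range. Before removal they were -0.22, -0.10, -0.25 and -0.09 in siETV4 and 0.27, 0.27, 0.26 and -0.14 in siNC. Both groups thus spread more widely after removal, and whether removal overcorrects GINS3 was not tested. At 43.6% GC, GINS3 was the member below the median GC content with the lowest value.

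The other GINS subunits were less far apart. GINS2 had a log2 fold change of -0.20 (SE 0.12), GINS4 of -0.16 (SE 0.11) and GINS1 of 0.07 (SE 0.09), none past the threshold in any alternative. With the trends removed GINS1 changed sign to -0.16 (SE 0.13, edgeR adjusted p 0.599), so all 4 GINS genes then had negative values, from -0.51 to -0.16. The departures of GINS1 from its mean over all libraries (log2 CPM) were then, in replicate order, -0.27, 0.14, -0.21 and 0.04 in siETV4. In siNC they were 0.02, 0.27, 0.30 and -0.295, so the groups overlapped and siNC replicate 4 was the lowest library. Before removal they ran from -0.01 to 0.11 in siETV4 and from -0.18 to 0.05 in siNC. Whether removal overcorrects GINS1 was not tested. Per length, GINS3 was the scarcest subunit, at 10.2 ± 0.442 FPKM in siETV4 and 12.5 ± 1.35 FPKM in siNC. GINS2 was the most abundant, at 35.0 ± 2.66 FPKM in siETV4 and 38.8 ± 5.41 FPKM in siNC. The share of GINS3 in the summed FPKM of the complex was 11.5 ± 0.328% in siETV4 and 13.3 ± 1.28% in siNC (SD, n = 4 each).

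CDC45, the helicase cofactor, had a log2 fold change of -0.06 (SE 0.10). MCM10, which helps to start the helicase, had 41.5, 35.0, 44.3 and 32.9 CPM in siETV4, against 31.7, 29.5, 28.35 and 46.65 CPM in siNC. As for MCM6, siNC replicate 4 was the highest library and the other siNC libraries were the lowest. The value was 0.17 (SE 0.17, edgeR adjusted p 0.671), and it missed the threshold without siNC replicate 4 too (0.36, edgeR adjusted p 0.0575). With the trends removed in all 8 libraries it was 0.02 (edgeR adjusted p 0.958).

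Among the polymerase and fork genes the 2 ends were LIG1 and POLA1. LIG1, the ligase that joins Okazaki fragments, had 96.8, 102, 94.0 and 101 CPM in siETV4, against 131, 134, 129.8 and 106 CPM in siNC. Every siETV4 library lay below every siNC library, and siNC replicate 4 lay nearest to them. The log2 fold change was -0.35 (SE 0.09, edgeR adjusted p 0.225) with all libraries. It was -0.42 without siNC replicate 4 (edgeR adjusted p 0.00979), -0.21 after trend removal (edgeR adjusted p 0.0707) and -0.23 with both (edgeR adjusted p 0.0330).

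POLA1 had 25.6, 17.0, 20.0 and 16.7 CPM in siETV4, against 14.0, 12.2, 13.7 and 28.8 CPM in siNC. The highest library of all was siNC replicate 4, and the other siNC libraries lay below every siETV4 library. Its log2 fold change of 0.21 had an SE of 0.26 (edgeR adjusted p 0.746). Leaving that library out, POLA1 rose by 0.58 (edgeR adjusted p 0.0290), and with the trends removed as well the value was 0.29 (edgeR adjusted p 0.160). With the trends removed in all 8 libraries it was 0.12 (SE 0.15, edgeR adjusted p 0.754).

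The remaining fork genes stayed within their spread. PCNA had a log2 fold change of -0.06 (SE 0.08), FEN1, the flap endonuclease, of -0.11 (SE 0.10) and RFC4, a clamp loader subunit, of -0.02 (SE 0.10). EXO1, a 5′ to 3′ exonuclease, stood at 0.08 (SE 0.16), POLE2, the accessory subunit of the leading-strand polymerase, at 0.09 (SE 0.20) and CLSPN, the checkpoint mediator claspin, at -0.02 (SE 0.25). None of these 6 passed in any alternative. For EXO1, CLSPN and POLE2 siNC replicate 4 was again the highest siNC library, at 50.0, 39.5 and 13.7 CPM.

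CHAF1A and CHAF1B, subunits of the histone chaperone CAF-1, and UHRF1, which carries DNA methylation through replication, all had negative values. CHAF1A had 103, 102, 99.7 and 108 CPM in siETV4, against 120.1, 123, 123 and 109.7 CPM in siNC. The groups did not overlap, by a margin of about 1 CPM at siNC replicate 4. Its value was -0.20 (SE 0.08, edgeR adjusted p 0.362), and -0.24 without siNC replicate 4 (edgeR adjusted p 0.0517). CHAF1B had a value of -0.22 (SE 0.11) and UHRF1 of -0.17 (SE 0.09). CHAF1A took 82.0 ± 0.680% of the summed FPKM of the pair in siETV4 and 81.8 ± 0.432% in siNC. With the trends removed the values were -0.08 for CHAF1A, -0.21 for CHAF1B and -0.06 for UHRF1, none past the threshold. CHAF1A shares part of its span with UBXN6, which averaged 3126 counts a library.

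In nucleotide supply the subunits of ribonucleotide reductase, which makes deoxyribonucleotides, had positive values and the thymidylate genes negative ones. RRM1, the large subunit, had 326, 256, 332 and 229 CPM in siETV4, against 192, 220.1, 180 and 344 CPM in siNC. The highest library was siNC replicate 4, and the others of siNC lay below every siETV4 library. Its fold change was 0.29 on the log2 scale (SE 0.20, edgeR adjusted p 0.548), 0.53 without siNC replicate 4 (edgeR adjusted p 0.0198) and 0.14 with the trends removed (edgeR adjusted p 0.618). RRM2, the small subunit that is made in S phase, had 343, 322, 340.2 and 349 CPM in siETV4, against 313, 321, 307 and 306 CPM in siNC. Its groups stood apart by about 1 CPM, and its value was 0.12 (SE 0.07, edgeR adjusted p 0.508), or 0.02 with the trends removed (edgeR adjusted p 0.894).

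TYMS, thymidylate synthase, had a log2 fold change of -0.09 (SE 0.09), and TK1 of -0.22 (SE 0.13). TK1 ranged over 351 to 469 CPM in siETV4 and 370 to 514 CPM in siNC, so the groups overlapped widely. Neither gene passed in any alternative. TYMS lies beside and partly across ENOSF1, which averaged 491 counts a library.

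E2F2 had the lowest log2 fold change of the 34. It is an activating E2F that is itself made at G1/S. It stood at 29.1, 30.5, 27.4 and 31.5 CPM in siETV4, against 43.5, 39.2, 44.2 and 39.7 CPM in siNC. Every siETV4 library lay well below every siNC library, and here siNC replicate 4 did not stand apart from its group. The siETV4 mean was 29.6 ± 1.78 CPM, against a siNC mean of 41.6 ± 2.56 CPM (SD, n = 4 each). The log2 fold change was -0.49 (SE 0.10, 95% interval -0.72 to -0.27). The unadjusted p was 5.44e-04 and the edgeR adjusted p 0.110, which did not pass. Once GC content and length trends had been removed E2F2 fell by 0.36 (edgeR adjusted p 0.0197), without siNC replicate 4 by 0.51 (edgeR adjusted p 0.0116) and with both by 0.35 (edgeR adjusted p 0.0147). E2F2 was a scarce transcript per length, at 5.03 ± 0.247 FPKM in siETV4 and 6.87 ± 0.419 FPKM in siNC.

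E2F1, the other activating E2F of the list, was more abundant, at 24.0 ± 1.14 FPKM in siETV4 and 25.0 ± 2.65 FPKM in siNC. Its log2 fold change was -0.11 (SE 0.11, edgeR adjusted p 0.686), and 0.05 with the trends removed. Its siETV4 libraries lay at 60.1 to 69.3 CPM and its siNC libraries at 55.6 to 75.0 CPM. CCNE1 and CCNE2 encode cyclin E. CCNE1 had a log2 fold change of -0.04 (SE 0.18) and CDC25A, the phosphatase that activates the cyclin E kinase, of -0.01 (SE 0.11). CCNE2 had 22.1, 14.0, 18.5 and 9.82 CPM in siETV4, against 11.9, 10.7, 10.3 and 21.8 CPM in siNC. Both groups spread widely, with a value of 0.24 (SE 0.29, edgeR adjusted p 0.731), and -0.01 with the trends removed. CCNE2 shares part of its span with INTS8 and NDUFAF6.

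**Figure D3:**
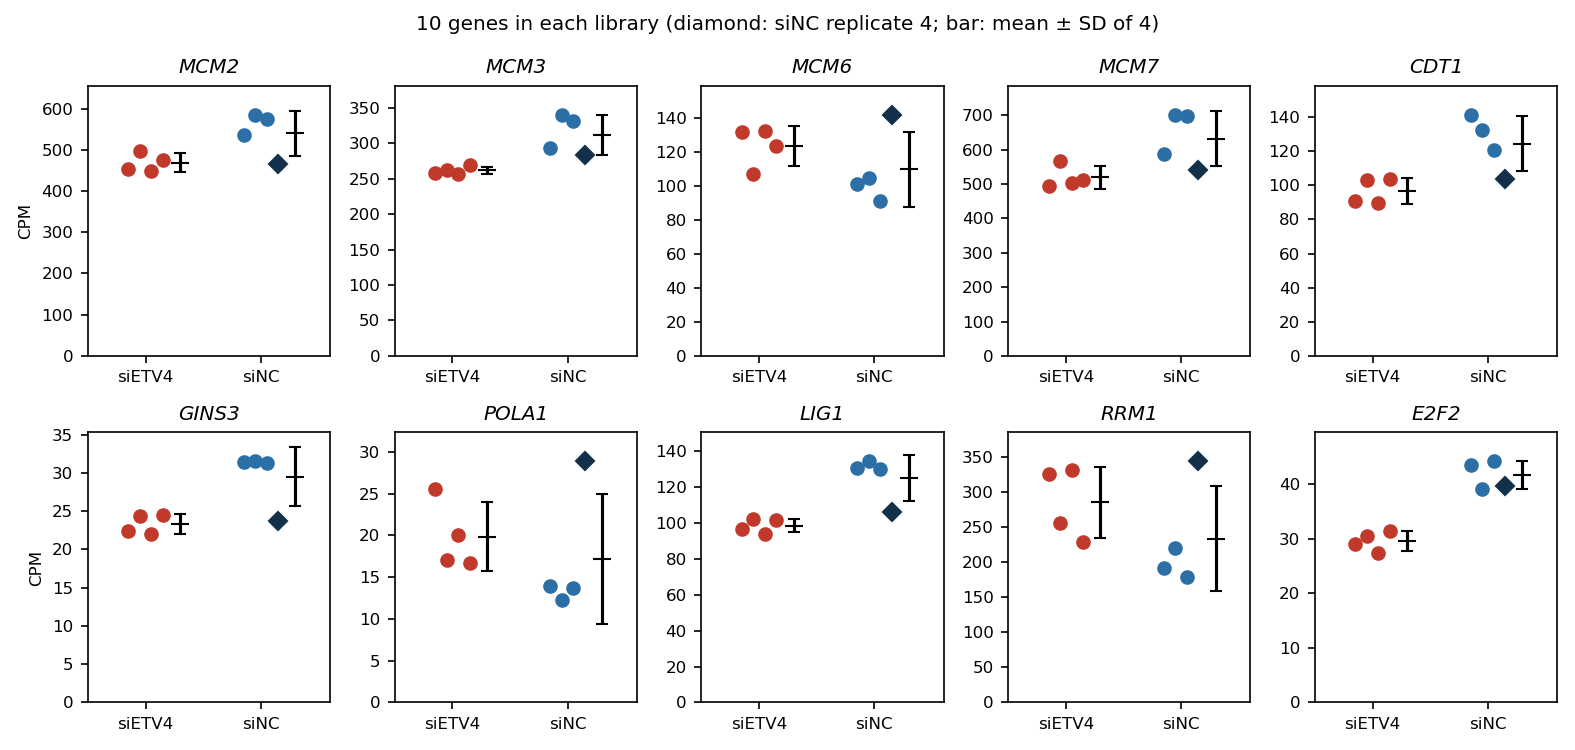
CPM in each library for the 10 genes past the threshold without siNC replicate 4, with siETV4 left of siNC, siNC replicate 4 as a dark diamond and the bar giving mean ± SD of 4 libraries. The diamond lies at the siETV4 side of its group for MCM2, MCM3, MCM7, CDT1, GINS3 and LIG1 and far above it for MCM6, POLA1 and RRM1, and only for E2F2 does it lie among its group.

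The direction of the values followed GC content. Across the 34 genes the log2 fold change had a Spearman's rho of -0.75 with the GC content of the longest transcript, and -0.55 across the 12971 tested genes with a GC value. The points share their 8 libraries, so this is a description. GC content ran from 36.9 to 64.9% over the members, with a median of 48.9%, close to the 48.4% of all tested genes. All 17 members above their median GC content had negative values, with a median of -0.20. Of the 17 at or below it 7 were negative, with a median of 0.08. This split was chosen after the values had been seen. Across all tested genes in bins of GC content, the median ran from 0.22 at 35.9% GC to -0.17 at 65.5% GC. It was -0.04 in the bin at 49.3% GC and -0.12 in the bin at 56.5% GC.

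The split widened when siNC replicate 4 was left out. The 17 members of higher GC content then had a median of -0.24, with 6 lower past the threshold and 0 higher, and the 17 of lower GC content a median of 0.17, with 3 higher and 1 lower. All tested genes widened likewise, with a rho of -0.66 across those with a GC value. Their medians ran from 0.47 in the bin of lowest GC content to -0.25 in the highest. Of all genes 12.0% were higher past the threshold there and 4.88% lower. After removal of the trends both medians were -0.07, with 13 of 17 negative above the median GC content and 11 of 17 at or below it. The rho was then -0.17 across members and 0.02 across all genes with a GC value. With siNC replicate 4 left out as well it was -0.26 across members and -0.003 across all genes. How far GC content bears on any gene in these libraries was not tested beyond these fits.

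**Figure D4:**
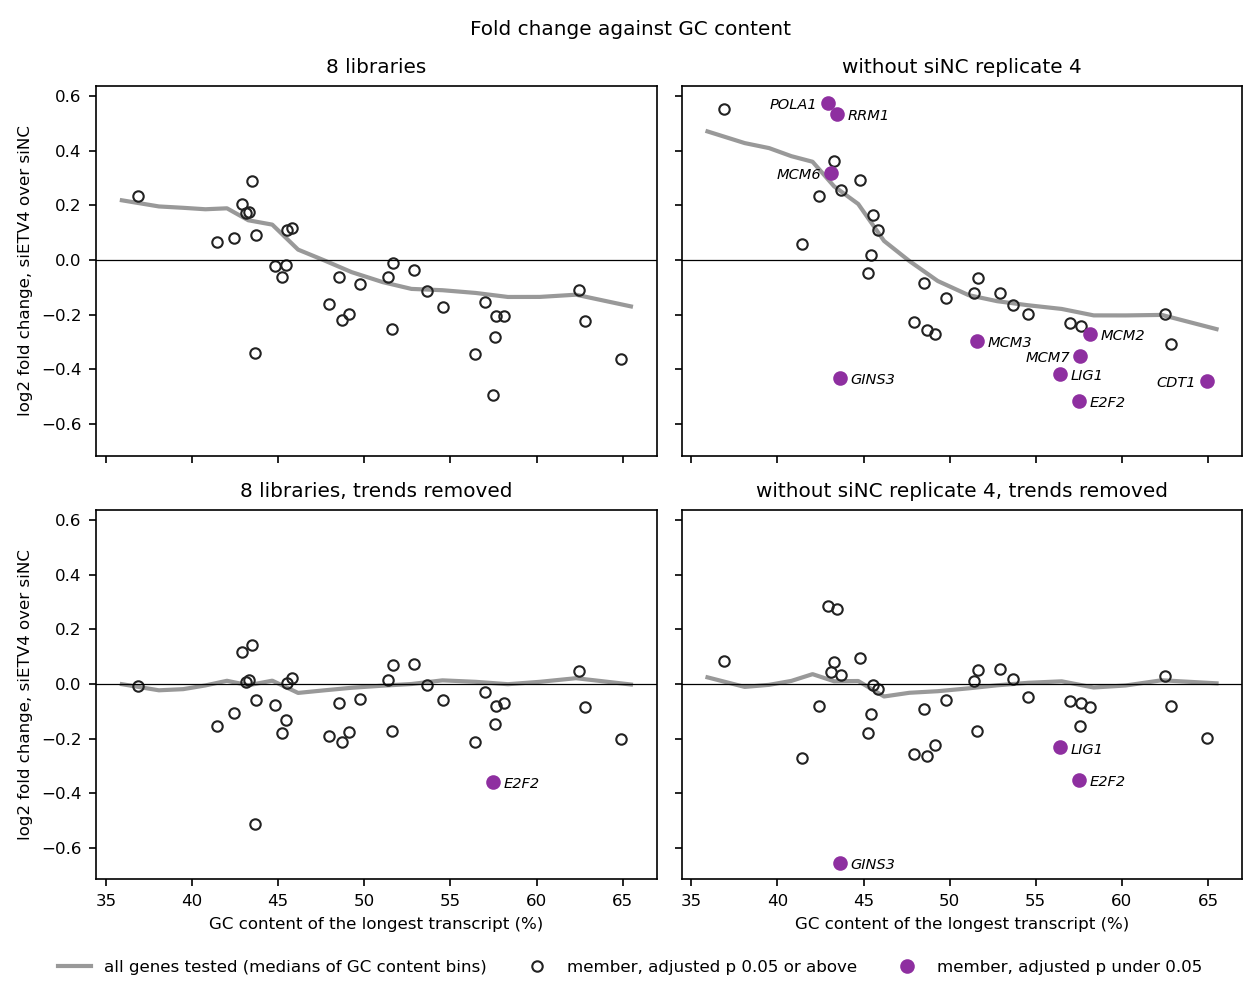
Log2 fold change (siETV4 over siNC) against GC content of the longest transcript for the 34 genes, with filled points past an adjusted p of 0.05 and the grey line giving the median of all genes tested in GC bins. In the upper panels the members follow the grey line down with GC content, while in the lower panels, with trends removed, E2F2 and GINS3 remain well below it.

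By library, the 34 genes departed from their mean over all 8 libraries by a median of -0.04, -0.02, -0.10 and -0.06 (log2 CPM) in siETV4 replicates 1 to 4 and -0.01, 0.15, 0.13 and -0.04 in siNC replicates 1 to 4. Replicates 2 and 3 of siNC stood above the rest, and siNC replicates 1 and 4 stood among or next to siETV4. For the 17 genes of higher GC content the medians were -0.14, -0.01, -0.15 and -0.07 in siETV4 and 0.04, 0.22, 0.17 and -0.11 in siNC. For the 17 of lower GC content they were 0.08, -0.05, 0.17 and -0.04 in siETV4 and -0.11, -0.02, -0.16 and 0.12 in siNC. The 2 sets had opposite signs in siETV4 replicates 1 and 3 and in all 4 siNC libraries, though not equal sizes. In siNC replicate 2 the set of lower GC content lay near its mean, at -0.02. After removal of the trends, the medians of all 34 ran from -0.07 to -0.00 in siETV4 and from -0.01 to 0.09 in siNC, so the groups still overlapped.

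**Figure D5:**
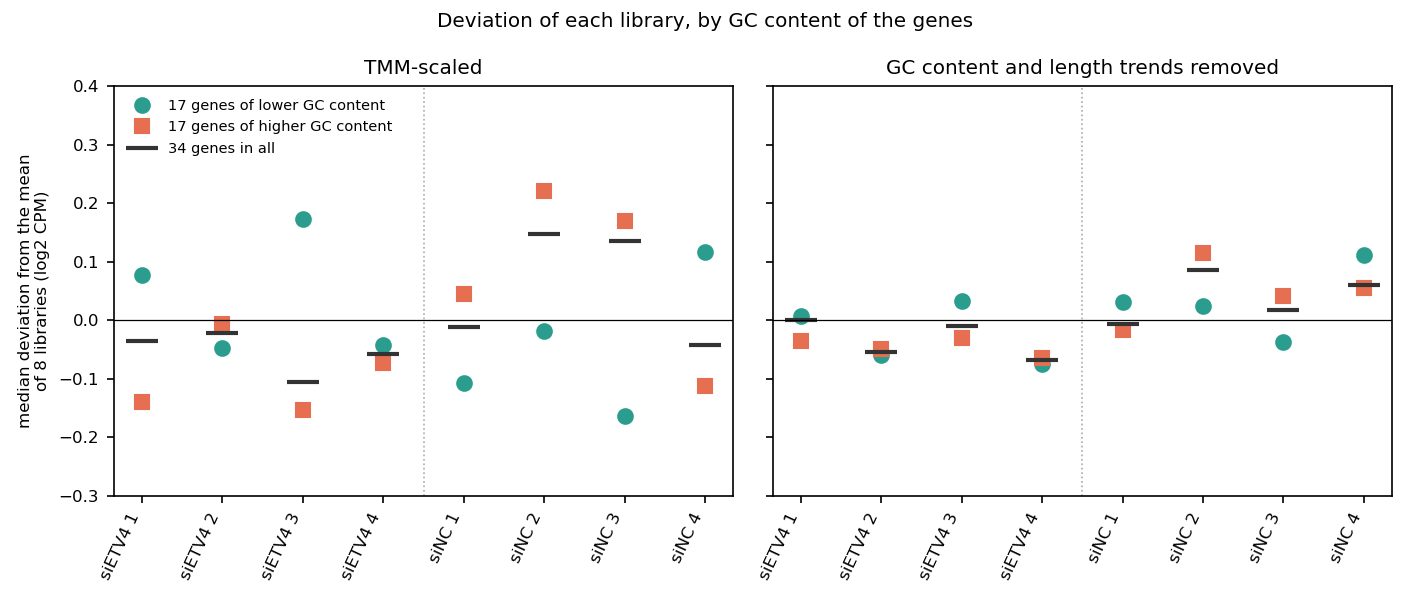
Median departure of each library from the 8-library mean (log2 CPM) for the 17 genes of lower GC content, the 17 of higher GC content and all 34, with siETV4 left of siNC. As scaled by TMM, siNC replicate 4 has its squares at -0.11 and its circles at 0.12, the reverse of siNC replicates 1 to 3, and the right panel, with trends removed, shows a narrower spread.

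Other genes of the same processes, in lists chosen with earlier results of these data known, also had no edgeR calls with all 8 libraries. Of 19 other origin and helicase genes 0 passed (4 at an unadjusted p under 0.05 by edgeR, 0 by DESeq2), with a median of 0.13. MCMBP, which binds free MCM subunits, had a log2 fold change of 0.13 (SE 0.09) and TIMELESS, of the fork protection complex, of -0.25 (SE 0.08). Without siNC replicate 4, 4 were higher (DBF4, TIPIN, ORC2 and ORC4) and 2 lower (RECQL4 and TIMELESS), and with the trends removed 0 passed. Under both steps RECQL4 alone passed, lower.

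Of 22 other polymerase, clamp and fork genes 0 passed (4 unadjusted, 0 by DESeq2), with a median of -0.03. POLE3, a histone-fold subunit of the leading-strand polymerase, stood at -0.18 (SE 0.09) and RPA1, which coats single-stranded DNA, at 0.06 (SE 0.08). With siNC replicate 4 left out, 5 were higher, among them PRIM2 and POLD3, and 3 lower, among them POLD2. Both subunits of primase, PRIM1 and PRIM2, were higher there, as was POLA1, which works with them, and with the trends removed none of the 3 passed. POLA2, the partner subunit of POLA1, went the other way without siNC replicate 4, at -0.14 (edgeR adjusted p 0.282). GC content was 40.71% for PRIM1, 41.55% for PRIM2, 42.93% for POLA1 and 54.49% for POLA2. Under both steps POLE3 was the only gene of the list to pass, lower by 0.32 on the log2 scale (edgeR adjusted p 0.00777). Of 13 other nucleotide supply genes 0 passed (1 unadjusted, 0 by DESeq2), with MTHFD1, of folate metabolism, at -0.03 (SE 0.08) and GMPS, of guanine nucleotide synthesis, at 0.12 (SE 0.09). In the fit without siNC replicate 4, 3 were higher (SAMHD1, DCK and RRM2B) and 1 lower (SHMT1), with both steps DUT and ADSL were lower, and with the trends removed alone 0 passed.

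Of 25 other E2F, RB and G1 cyclin genes 24 were tested and 0 passed (4 unadjusted), while DESeq2 called CDKN2B, E2F5 and E2F6 higher. The list's median was 0.08. CDKN2B, the CDK4 and CDK6 inhibitor p15, averaged 72.1 ± 6.66 CPM over the siETV4 libraries, against 49.2 ± 2.58 CPM over the siNC libraries (SD, n = 4 each). Its log2 fold change was 0.55 (SE 0.10, edgeR adjusted p 0.0551). Once the trends were removed it rose by 0.41 (edgeR adjusted p 0.0285), and CDKN1A, the CDK inhibitor p21, by 0.30 (edgeR adjusted p 0.0335). Before removal CDKN1A had a value of 0.16 (SE 0.10, edgeR adjusted p 0.493) with all 8 libraries, and its groups overlapped in CPM. Without siNC replicate 4 alone CDKN1A stood at 0.11 (edgeR adjusted p 0.390). Cyclin D1 and its kinase, CCND1 and CDK4, had values of 0.10 (SE 0.09) and -0.02 (SE 0.12). Leaving out siNC replicate 4, CDKN2B, E2F5, E2F6 and RB1 were higher and MYC lower, and with both steps CDKN1A and CDKN2B were higher.

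For comparison, 0 of 30 G2/M and mitosis genes passed (5 unadjusted), with a median of -0.01, and DESeq2 called 1, ESPL1, lower. CDC20, an activator of the anaphase-promoting complex, had a log2 fold change of -0.25 (SE 0.10) and TPX2, a spindle assembly factor, of -0.12 (SE 0.08). With siNC replicate 4 left out, 9 were higher, among them KIF23 and CDK1, and 5 lower, among them ESPL1 and CDC20. Under the trend removal ESPL1, the separase gene, fell by 0.34 (edgeR adjusted p 0.0255) and no other passed. With siNC replicate 4 left out as well, CCNB2, ESPL1 and CCNB1 were lower and KIF23 higher. Of 13 replication-dependent histone genes 9 were tested and 0 passed (2 unadjusted, 0 by DESeq2), with H2BC12 at -0.24 (SE 0.10) and H1-2 at -0.08 (SE 0.13). H2BC12 was lower past the threshold without siNC replicate 4 (edgeR adjusted p 0.0230), and 0 passed with the trends removed. All 13 mitochondrially encoded genes had negative values (median -0.22), 0 past the threshold (1 unadjusted, 0 by DESeq2), and COX2 was lower past it without siNC replicate 4. They carried no GC value and were not tested with the trends removed. Their part in the values of the replication genes was not tested.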

How the data were processed

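RNA of 8 HaCaT cultures was sequenced. Raw counts by gene symbol, and FPKM values of the same symbols, are as the authors deposited them. The submitters' processing notes name hg38 and R 3.2.0. The sources used here do not give the aligner, counter, annotation or strand setting. The deposited FPKM values equal the count divided by library total and a gene length, constant across libraries for 20584 of 20585 symbols (relative tolerance 1e-06), so they carry no further normalization. Groups and replicate numbers came from the sample titles.

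The count table was analysed with edgeR 4.0.16 (R 4.3.3). After filterByExpr (minimum count 10) and TMM scaling, genes were tested by edgeR's quasi-likelihood test with siRNA as the only term. The p-values were adjusted by the Benjamini-Hochberg method over all tested genes, with a threshold of 0.05. CPM values use TMM-scaled totals, and errors are SD over 4 libraries. Fold changes are siETV4 over siNC. Deviations of same-numbered libraries of the 2 groups had a Pearson's r of -0.09, 0.30, -0.14 and -0.19 across genes. Those of libraries with unlike numbers ran from -0.40 to 0.39. The numbers were not used as pairs, though these values cannot exclude pairing. No library repeated another within sampling noise (lowest chi-square per degree of freedom 8.63).

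Alternatives were library size alone, RLE factors, 1 CPM in 4 libraries, no filter, DESeq2 1.42.0, limma-voom (limma 3.58.1), a robust fit, a threshold of 0.1, a replicate block, each library left out, and limma-trend on log2(FPKM + 1) or log2(FPKM + 0.1), with a mean FPKM of at least 0.5 or no filter. Offsets removed the trend of each library on GC content and length (splines, 5 degrees of freedom), with GC content from the longest GENCODE v29 transcript (95.6% of tested genes). Positions and promoters came from RefSeq GRCh38.p14. The test was checked on simulated counts.

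The members, lists and alternatives were chosen with earlier results of these data known, and the lists carry no test. Named genes are the 34 members, ETV4 and, from each other list, up to 4 past the threshold by smallest p, or otherwise the 2 most abundant tested. List genes past the threshold without siNC replicate 4, with the offsets or by DESeq2 are named as such, and POLA2 is named beside POLA1.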

Additional observations from a re-analysis of the deposited data

Results flagged for a closer look

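In each group of 4 libraries the highest and the lowest CPM of ETV4 and of the 34 genes were set against the rest by the gap to the nearest library over the whole range. Of 70 groups 9 had a library past Dixon's 95% critical value, and 5 of the 9 were siNC replicate 4. Chance gives about 1 in 20 for a single group. The 70 groups share the same 8 libraries and are not independent, so the count is a description. In that library GINS3 stood at 23.8 CPM (others of siNC 31.3 to 31.5) and LIG1 at 106 CPM (129.8 to 134), both low, and POLA1 at 28.8 CPM (12.2 to 14.0), EXO1 at 50.0 CPM (33.9 to 35.1) and CCNE2 at 21.8 CPM (10.3 to 11.9), all high. In siNC replicate 3 PCNA was low at 371 CPM (others 413 to 419). In siETV4 replicate 3 CDC6 was high at 151 CPM (others 131 to 135) and RFC4 low at 51.5 CPM (57.7 to 58.4), and in siETV4 replicate 2 TK1 was high at 469 CPM (351 to 363).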

How the results depend on the processing

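Over 23 alternative settings, 707 of the 782 values of the 34 genes kept direction and side of the threshold, 15 kept direction and passed the threshold, and 60 changed sign, in 13 genes whose values with all libraries lay within 0.24 of 0. The median over the members stayed negative throughout, from -0.03 to -0.13.

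The number of members past the threshold was 1 with DESeq2, 1 with GC content and length offsets and 3 with the offsets and without siNC replicate 4. It ran from 0 to 10 when 1 library was left out, with 10 without siNC replicate 4 and 0 without any other. Over all genes the count of 32 became 54 without a filter, 223 with DESeq2, 60 at a threshold of 0.1, 225 with the offsets, 842 with the offsets and without siNC replicate 4, and 59 with limma-trend at either pseudocount. When 1 library was left out it was 2327 without siNC replicate 4 and 9 to 16 without any other, lowest without siETV4 replicate 3. In the other lists together 0 became 1 without a filter, 4 with DESeq2, 1 at a threshold of 0.1, 3 with the offsets, 10 with the offsets and without siNC replicate 4, 1 with limma-trend at either pseudocount, and 0 to 38 when 1 library was left out (38 without siNC replicate 4).

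The numbers of the replicates were not used as pairs in the main fit. With the replicate block 4 genes passed over all and 0 members, the members' median was -0.07, and CLSPN stood at 0.032. With the replicate block and the offsets 103 genes passed and 0 members, and the values that changed sign were CDC25A 0.071, CCNE1 0.059, CDC45 0.015, GINS1 -0.15, POLE2 -0.036, EXO1 -0.11, E2F1 0.045, CCNE2 -0.020 and FEN1 0.0001.

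With the offsets alone the sign changed for CDC25A (0.071), CCNE1 (0.074), CDC45 (0.015), GINS1 (-0.16), POLE2 (-0.060), EXO1 (-0.11), E2F1 (0.046) and CCNE2 (-0.0089). With the offsets and without siNC replicate 4 it changed for CDC25A (0.050), CLSPN (0.097), CCNE1 (0.054), CDC45 (0.012), GINS1 (-0.27), EXO1 (-0.080), E2F1 (0.029), FEN1 (0.019), CDC6 (-0.0025) and RRM2 (-0.019). RLE factors gave CDC25A 0.0046, DESeq2 gave it 0.0048 and limma-voom gave CLSPN 0.018. Library size alone gave CDC25A 0.035, RFC4 0.022, CLSPN 0.015 and CCNE1 0.010. Limma-trend on log2(FPKM + 1) gave CDC25A 0.035, RFC4 0.026, CLSPN 0.042 and CCNE1 0.0044 with or without the filter, and on log2(FPKM + 0.1) CDC25A 0.038, RFC4 0.027, CLSPN 0.067 and CCNE1 0.0048. When 1 library was left out, CDC25A ran from -0.066 to 0.040, RFC4 from -0.063 to 0.022, CCNE1 from -0.14 to 0.064, CLSPN from -0.15 to 0.29 and POLE2 from -0.066 to 0.26. The cause was not tested.

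At 188 counts or more per member and library, the spread between 4 libraries limits what can be seen. For POLA1, RRM1 and CCNE2 the 95% interval held both no change and a 1.5-fold change.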
